A study of Mus musculus with 2 samples.

Results

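Of the 2202 hairpin genes in the deposited microRNA tables, 1021 carry a provisional symbol of the form Gm plus a number instead of a microRNA name. They were chosen by that symbol alone, in release M21 of the GENCODE annotation (build mm10). A further 1178 genes carry a microRNA name and 3 carry another name. Left cerebral cortex of female B6CASTF1/J mice was the source of the total RNA; these are first-generation hybrids of C57BL/6J and CAST/EiJ, taken at postnatal day 10, with no treatment stated in the labels. They form 1 group of 2 animals, called animal 1 and animal 2 after the replicate numbers of the labels; the labels number the females differently but give both the same donor entry. Each animal has 1 library, and the p-values given here cover counting error only, so they measure no spread between animals.

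MicroRNAs are short RNAs that guide Argonaute proteins to messenger RNAs, mainly through the seed, bases 2 to 8 of the mature strand. In the usual route a hairpin is cut from a longer transcript by Drosha with its partner Dgcr8 and then trimmed by Dicer. In the mirtron route the ends of the hairpin are made by splicing of a short intron instead. A gene model is placed in the microRNA class when its sequence resembles a known hairpin or folds like one, so a provisional symbol says nothing about whether a mature RNA is made.

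The sequences that the results turn on are given 5′ to 3′, from the GENCODE M21 transcripts (mm10). Gm23450 (ENSMUSG00000094210.1, chr7:3415066-3415156, plus strand) held most of the reads of the class, and its capitals mark the mature sequence of miR-935.

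Gm23450: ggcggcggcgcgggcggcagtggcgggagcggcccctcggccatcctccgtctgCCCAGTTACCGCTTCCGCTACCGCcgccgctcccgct
miR-935: cCCAGUUAccgcuuccgcuaccgc

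The mature sequence is RefSeq's (build GRCm38.p6), with the seed in capitals; no other mature sequence in the RefSeq table, which holds 1679 mature names, had this seed. Gm23935 (chr16:11144125-11144181, plus strand) is shown because a closely related stretch recurs in 5 other hairpins, and its capitals mark the longest run shared with Gm24187. Gm24197 (chr8:84925525-84925633, minus strand) is shown because it had reads in 1 animal only, and Gm24589 (chr17:24594978-24595071, plus strand) because it spans exactly 1 annotated intron. Neither has a marked stretch.

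Gm23935: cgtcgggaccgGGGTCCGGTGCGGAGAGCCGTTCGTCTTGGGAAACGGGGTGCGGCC
Gm24197: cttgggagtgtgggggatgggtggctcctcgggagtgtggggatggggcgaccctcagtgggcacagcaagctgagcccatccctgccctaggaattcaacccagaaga
Gm24589: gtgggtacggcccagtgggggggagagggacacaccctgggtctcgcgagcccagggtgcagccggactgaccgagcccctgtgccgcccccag

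Finally, 9 Gm hairpins lie on the strand opposite a named microRNA gene. The hairpins below are 4 of them, and their capitals mark the reverse complement of the mature strand of the named partner, let-7e-5p, miR-191-5p, miR-409-3p and miR-9-5p in that order. They lie at chr17:17830343-17830459, chr9:108568295-108568414, chr12:109743158-109743237 and chr3:88215589-88215696, all on the minus strand. The partners' mature sequences follow with the seed in capitals.

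Gm25927: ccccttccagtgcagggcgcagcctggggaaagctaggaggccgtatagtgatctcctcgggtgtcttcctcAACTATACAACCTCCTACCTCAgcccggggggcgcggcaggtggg
Gm24083: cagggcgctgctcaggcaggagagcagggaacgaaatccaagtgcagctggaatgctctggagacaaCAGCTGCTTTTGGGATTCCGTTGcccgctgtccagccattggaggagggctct
Gm24321: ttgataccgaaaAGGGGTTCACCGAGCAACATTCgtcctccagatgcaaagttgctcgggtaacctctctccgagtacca
Gm25641: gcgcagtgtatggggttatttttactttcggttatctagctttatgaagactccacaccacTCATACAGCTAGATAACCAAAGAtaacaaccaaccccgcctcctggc
let-7e-5p: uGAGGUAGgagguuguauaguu
miR-191-5p: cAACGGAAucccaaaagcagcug
miR-409-3p: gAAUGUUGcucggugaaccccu
miR-9-5p: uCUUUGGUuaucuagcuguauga

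The Gm hairpins were almost silent as a class, and what signal there was sat in very few of them. Of the 1021 members, 52 (5.09%) had at least 1 read on their own strand in either animal, against 715 of 1178 named genes (60.7%). Levels in CPM, the usual scaling of counts to library size, were taken over all reads counted to hairpin genes on the own strand, 3806078 in animal 1 and 2602935 in animal 2. With detection set at a minimum of 10 CPM in each animal, 2 members were detected (0.196%), beside 304 named genes (25.8%) and 307 of all 2202 genes (13.9%). Reads were found in both animals for 24 members, in animal 1 only for 16 and in animal 2 only for 12. On neither strand was there a read for 951 members. A count of 0 allows up to 3 counted reads, or 0.788 CPM and 1.15 CPM in animals 1 and 2, so the silent members were not shown to be absent. For members that share sequence with other hairpins that limit does not cover reads left uncounted because they map to several positions.

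Together the members held 1398 reads in animal 1, 0.0367% of the counted reads (exact Clopper-Pearson 95% interval 0.0348 to 0.0387), and 686 reads in animal 2, 0.0264% (0.0244 to 0.0284). The mean was 0.0315% ± 0.00734 (SD, n = 2). The intervals, here and elsewhere, cover counting error only, since they hold no term for spread between animals. No molecular identifiers were seen, so reads copied from the same molecule cannot be told apart. Intervals and p-values may therefore be too narrow even for counting error. Gm23450 alone gave 73.2% of the members' reads in animal 1 and 67.8% in animal 2. Without it the share of counted reads was 0.00985% (0.00888 to 0.0109) in animal 1 and 0.00849% (0.00741 to 0.00969) in animal 2, and the 2 intervals overlapped. The 15 members with 10 or more reads over both animals held 94.3% and 94.2% of the class, and 13 of the remaining 37 had a single read.

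**Figure D1:**
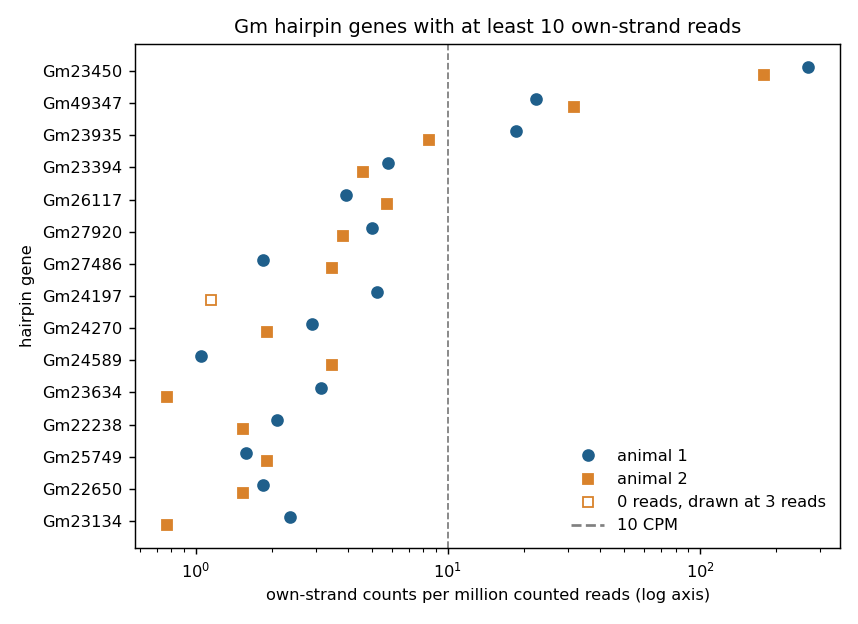
Own-strand CPM (log axis) of the 15 Gm hairpin genes with at least 10 reads over both animals, with a circle for animal 1, a square for animal 2 and a dashed line at 10 CPM; an open symbol is a count of 0 drawn at 3 reads. Gm23450 sits at 269 and 179 CPM, far to the right of the others, and only Gm49347 joins it beyond 10 CPM in both animals.

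Gm23450 had 1023 reads in animal 1 and 465 in animal 2, which is 269 CPM (95% interval 253 to 286) and 179 CPM (163 to 196), 224 ± 63.7 (SD, n = 2). Both animals were far above the detection level, and animal 1 was the higher. RefSeq gives Mir935 as a synonym of this gene, so the member with the highest level has a microRNA name that the GENCODE symbol does not show. Counts per gene do not tell whether the reads came from the mature strand of miR-935. All 91 bases lie within coding sequence of Cacng8, which encodes a transmembrane regulatory subunit of AMPA-type glutamate receptors, on the same strand. It was also rich in G and C (79.1%) with a predicted minimum free energy of -60.9 kcal/mol per 100 bases. By summed CPM it ranked 176 of 2202, and 179 when levels were divided by hairpin length. Its neighbours in rank were Mir340 (388 and 67.2 CPM in animals 1 and 2) and Mir193b (259 and 180 CPM). They were picked by rank, so the likeness of their mean levels was fixed by that choice. In bulk tissue, fewer cells that make an RNA and less of it per cell cannot be told apart.

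Gm49347 was the other detected member, with 85 and 82 reads, or 22.3 and 31.5 CPM in animals 1 and 2. It lies on chromosome 18, in a noncoding exon of AC121821.1, and it overlaps the small nucleolar RNA gene Snora74a on the same strand. H/ACA-type small nucleolar RNAs such as Snora74a guide pseudouridylation, and they fold into hairpins as well. The counts do not say whether reads came from a microRNA-like product or from the small nucleolar RNA, and this was not tested. The nearest named gene on that strand, Mir1949, lies 2496 bases away and had 25 and 13 reads, fewer than the member itself.

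Gm23935 stood just outside detection, with 71 reads in animal 1 (18.7 CPM) and 22 in animal 2 (8.45 CPM). It lies outside any gene on its own strand and opposite Zc3h7a. The identical 57-base hairpin is annotated at 2 further places, Gm24270 in an intron of Peak1 (11 and 5 reads) and Gm24245 (0 reads in both animals). Another 3 hairpins share a run of at least 18 bases with it: Gm24187 had 1 and 0 reads, Gm23388 0 and 1, and Gm25911 0 and 3. Of these 6 hairpins on 6 chromosomes, 5 thus had a read, 83 in animal 1 and 31 in animal 2 altogether. Gm24245, Gm24187, Gm23388 and Gm25911 were singled out after their values were seen. The sources used here do not say how reads were assigned between identical hairpins, so the levels of single copies are uncertain. Nor do the counts say whether these reads came from a microRNA-like product or from another kind of RNA, and this was not tested.

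The 12 members that RefSeq knows by a microRNA name fell into 3 groups. Mir935 (Gm23450) was well above detection, 5 others had a few reads, and 6 had none on their own strand. Gm22650 (Mir3552), in an intron of the serotonin receptor gene Htr2c, had 7 and 4 reads. Gm38671 (Mir9768), in a UTR of Mcf2l, had 5 and 4. Gm24572 (Mir3618), in a UTR of Dgcr8, had 4 and 0, while Mir1306, 233 bases away on the same strand, had 1433 and 399. Dgcr8 encodes the partner of Drosha. Gm38670 (Mir9769) had 3 and 0 reads and Gm23363 (Mir3154) 1 and 0. The members at 0 on their own strand were Gm24195 (Mir1271), Gm24627 (Mir1911), Gm25641 (Mir9b-1), Gm25285 (Mir466c-3) and the pair Gm27775 and Gm27740 (Mir6967 and Mir6967-2). Apart from Gm23450 and Gm25641, these genes were chosen for their names in RefSeq, with their values known.

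Few members that contain a known mature sequence had reads. In all, 238 members contain a RefSeq mature microRNA sequence on their own strand, and 7 of them (2.94%) had a read. Of these 238, 197 hold miR-680, miR-3471, miR-3470b, miR-690 or miR-3473b, and none of the 197 had a read in either animal. The named genes of these microRNAs, such as Mir680-1, Mir690 and Mir3473b, were at 0 too. Each of these sequences lies in many hairpins, and reads that map to several positions may be left uncounted. The counts of 0 therefore do not show that these microRNAs are absent. The sequences are short enough to compare, with the seed in capitals.

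miR-680: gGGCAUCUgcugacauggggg
miR-3471: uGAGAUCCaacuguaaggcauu
miR-3470b: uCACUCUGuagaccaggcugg
miR-690: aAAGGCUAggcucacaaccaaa
miR-3473b: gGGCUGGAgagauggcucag

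They were found in 83, 50, 44, 15 and 15 members, in that order, and no 2 of the 5 share a seed. Outside these repeats, 7 of 41 members that hold a mature sequence had a read (17.1%), as had 45 of 783 with none (5.75%). The only one of the 7 without a microRNA synonym in RefSeq was Gm24923, which contains miR-344i and had 7 and 2 reads, whereas the named gene Mir344i, 6418 bases away, had none. Other hairpins hold 34.3% of the 22-base runs of Gm24923, and reads that map to several positions may be missing from both counts. The counts therefore do not show which hairpin made miR-344i.

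Shared sequence ran through the class. Each hairpin was cut into all its runs of 22 bases, about the length of a mature microRNA, and these were looked up in every other hairpin of the table that does not overlap it. No run was shared for 221 members, and 34 of these had a read (15.4%). Some runs were shared for 553 members, of which 14 had a read (2.53%). Every run was shared for 247 members, of which 4 had a read (1.62%): Gm23935, Gm24270, Gm47295 and Gm23419. Among named genes the same 3 groups held 948, 180 and 50 genes, with a read in 65.8%, 50.6% and 0%. Within each of the first pair of groups the Gm share was the lower one. The most copied hairpin, with Gm22029 as its first symbol, was annotated 27 times on 12 chromosomes, and the next had 18, 16 and 15 copies; all of them were at 0 reads. Multimapping reads have their own line in the deposited tables (42.7% of all reads in animal 1 and 40.4% in animal 2), and the share of them that came from these hairpins was not tested.

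**Figure D2:**
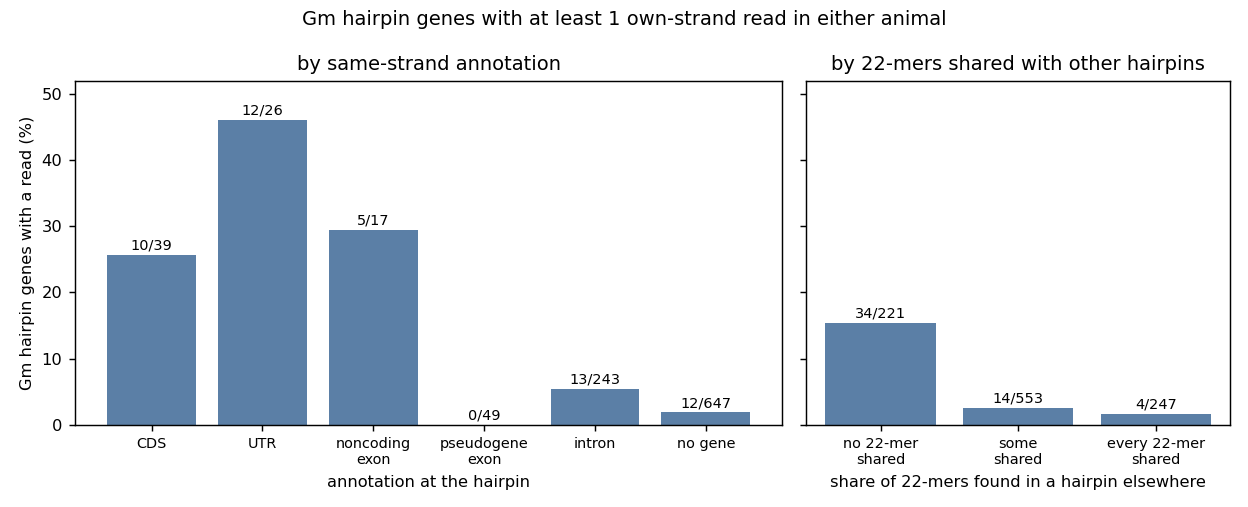
Percent of Gm hairpin genes with at least 1 own-strand read in either animal, by the annotation on the same strand (left) and by how many of their 22-base runs occur in another hairpin (right); the fraction above each bar is members with a read over members. UTR hairpins (12 of 26) and hairpins with no shared run (34 of 221) stand highest, and pseudogene exons (0 of 49) lowest.

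Members with reads lay more often in exons of other genes than members without. Of the 65 members in coding sequence or a UTR of a gene on the same strand, 22 had a read (33.8%), against 30 of 956 elsewhere (3.14%). For named genes the corresponding shares were 68.4% (91 of 133) and 59.7% (624 of 1045). In UTRs 12 of 26 members had a read, in coding sequence 10 of 39, in noncoding exons 5 of 17, in introns 13 of 243 and with no host gene on that strand 12 of 647. In exons of pseudogenes none of 49 did. Leaving out Gm23450 hardly moved the exon share, to 21 of 64 (32.8%). Fragments of the host messenger RNA cannot be told apart from hairpin products in counts per gene. The groups by annotation were not split by shared sequence, which also went with the share of members with a read. Whether the contrast holds among hairpins with like sharing was not tested.

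Beside Gm23450, the hairpins in exons and introns of protein-coding genes had small counts. Gm23394, in a UTR of Ralgapa1, had 22 and 12 reads (5.78 and 4.61 CPM). Gm26117, in a UTR of the adhesion receptor gene Adgrb1, had 15 in each animal. Gm27920, in coding sequence and UTR of the deubiquitinase gene Usp15, had 19 and 10. None of these 3 passed the test between the libraries described further on, and their intervals were wide. Gm25749, with 29 of its 111 bases in coding sequence of the AMPA receptor subunit gene Gria2, had 6 and 5 reads. Gm27486 in Sbno1 (7 and 9), Gm23634 in the microtubule regulator gene Stmn1 (12 and 2) and Gm22238 in Dock3 (8 and 4) were UTR hairpins with similar totals. Gm23134, in an intron of Blcap and opposite the imprinted gene Nnat, had 9 and 2 reads. These 8 hairpins were named for having 10 or more reads, after their values were seen.

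Exon overlap took different forms. Exons of small RNA genes were counted here too, whereas the groups by annotation above left them out. Of the members, 97 lay wholly in same-strand exons (20 with a read), 52 partly (11 with a read) and 872 not at all (21 with a read). Gm24197 is a hairpin of 109 bases at Mast1, which encodes a microtubule-associated kinase, and 17 of its bases are coding sequence. Gm24589 covers an intron of Pkd1 from its first to its last base (94 bases), the arrangement that defines a mirtron. Pkd1 encodes polycystin-1. The intron starts with GT and ends with AG, as the printed sequence shows. Besides Gm24589, 1 member spans exactly 1 annotated intron, Gm27471 in Skiv2l-ps1, and it had no read. Among named genes 20 did, and 14 of them had a read.

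A named hairpin lay within 10 kb on the same strand for 11 of the members with a read, and the level of these neighbours varied widely. Gm24155, with 6 and 2 reads, is 792 bases from Mir137, a neuronal microRNA with 35311 and 20532 reads. Gm27379, with 5 and 3 reads, is 382 bases from Mir544 (141 and 27 reads) in the imprinted microRNA cluster of chromosome 12. The nearest named genes of 4 others, Mir344i, Mir344h-2, Mir466m and Mir669a-2, had no read in either animal. A total of 74 members lay within 10 kb of a named gene on the same strand, so the 11 with a read were 14.9%. Gm24155, Gm27379 and the neighbouring genes were singled out after their values were seen. The 48 members within Sfmbt2 on chromosome 2 had 0 reads in animal 1 and 2 in animal 2.

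As structures, the members were longer and folded less stably than named hairpins. The median length was 104 bases, against 81.0 for named genes, and the median predicted folding energy -31.8 kcal/mol per 100 bases against -40.8. The 52 members with a read had a median of 91.0 bases, -39.0 kcal/mol per 100 bases and 60.7% G and C. The 969 without a read had 105 bases, -31.8 and 50.5%. For the 15 members with 10 or more reads the median G and C content was 73.7% and the median energy -41.3, whereas named genes with a read had 52.9% and -42.4. The spread within the read group was wide, from 34.9 to 91.6% G and C. Folding energy falls with G and C content, so these 2 descriptions overlap.

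The 9 hairpins opposite a named gene had reads on 1 strand only, that of the named gene. At each of them the own strand had 0 reads in both animals, and the opposite strand had exactly as many reads as the named gene had on its own. Gm25927 had 79894 and 58070 reads on the opposite strand, those of Mirlet7e, a member of the let-7 family. Gm24083 had the 30034 and 22477 reads of Mir191. Gm24321 had 20739 and 10883, those of Mir409, and Gm25252 had 10464 and 8844, those of Mir376a, both in the imprinted cluster of chromosome 12. Gm25301, opposite Mir378a on chromosome 18, had 14888 and 12056. Fewer reads lay at Gm25750 (Mir380, 1474 and 2032), Gm44322 (Mir539, 566 and 152), Gm24111 (Mirlet7f-1, 278 and 323) and Gm25641 (Mir9-1, 131 and 68). These are raw counts, and the library of animal 1 was the deeper. Hairpins elsewhere hold 1.32% of the 22-base runs of Gm24111 and 27.6% of those of Gm25641. At these loci reads that map to several positions may be missing, so the low counts do not show that let-7f or miR-9 is rare. Scaled to library size, Mirlet7e was at 20991 CPM in animal 1 and 22309 in animal 2, and animal 2 had the higher CPM at 6 of the 9 loci; only Mir409, Mir539 and Mir9-1 were higher in animal 1.

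**Figure D3:**
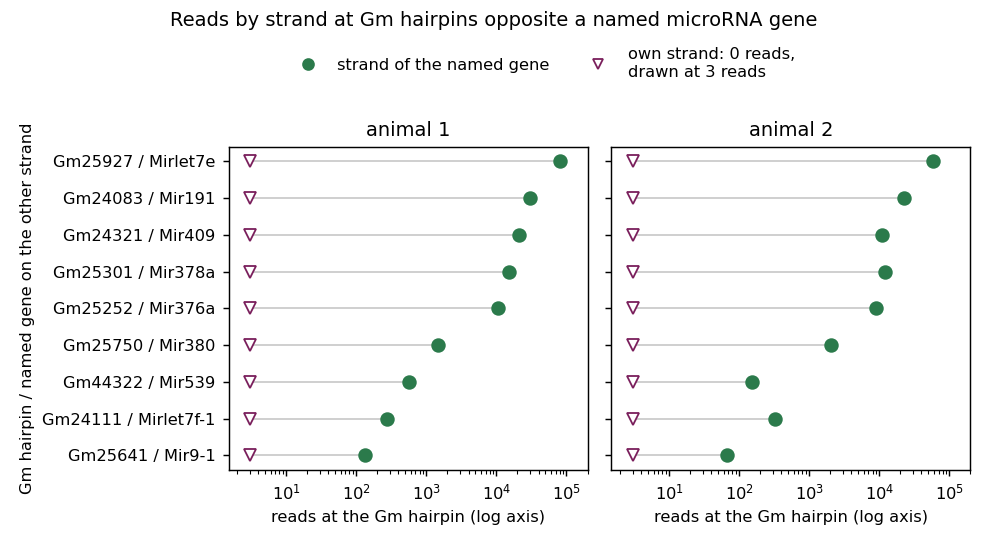
Reads at the 9 Gm hairpins opposite a named gene in each animal (log axis), with a filled circle for the strand of the named gene and an open triangle for the hairpin's own strand, where all 9 counts are 0 and are drawn at 3 reads. Counts on the named strand run from 131 to 79894 in animal 1 and from 68 to 58070 in animal 2.

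Summed over the 9 loci, 158468 reads in animal 1 and 114905 in animal 2 lay on the named strand and 0 on the other. With a count of 0 allowing up to 3 reads, the own strand held, by this counting limit, at most 0.00189% of locus reads in animal 1 and 0.00261% in animal 2. These loci made up 4.16% and 4.41% of all counted reads. They supplied 51.3% and 72.3% of the reads that the unstranded column left as ambiguous, and in that column both genes of each pair stood at 0. Mirlet7e and Mir191 were thus at 0 in the unstranded column. The counts per hairpin sum both arms, so the arm that gave the reads is not shown.

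Gm25641 is the 1 hairpin of the 9 that RefSeq lists as a microRNA, Mir9b-1, on the strand opposite Mir9-1. MicroRNA-9 is a regulator of neural progenitors and neurons. Both strands are annotated as hairpins, and the mature strands that RefSeq gives for Mir9b differ from those of Mir9 in their seeds.

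miR-9b-5p: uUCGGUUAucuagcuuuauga
miR-9b-3p: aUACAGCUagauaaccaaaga
miR-9-3p: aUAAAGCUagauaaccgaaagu

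No read was counted for either miR-9b strand at this locus, against 131 and 68 reads counted to Mir9-1. Other hairpins hold 27.6% of the 22-base runs of Gm25641, so reads that map to several positions may be missing from both counts. At that depth the limit of 3 reads is a looser one than at the let-7e locus.

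**Figure D4:**
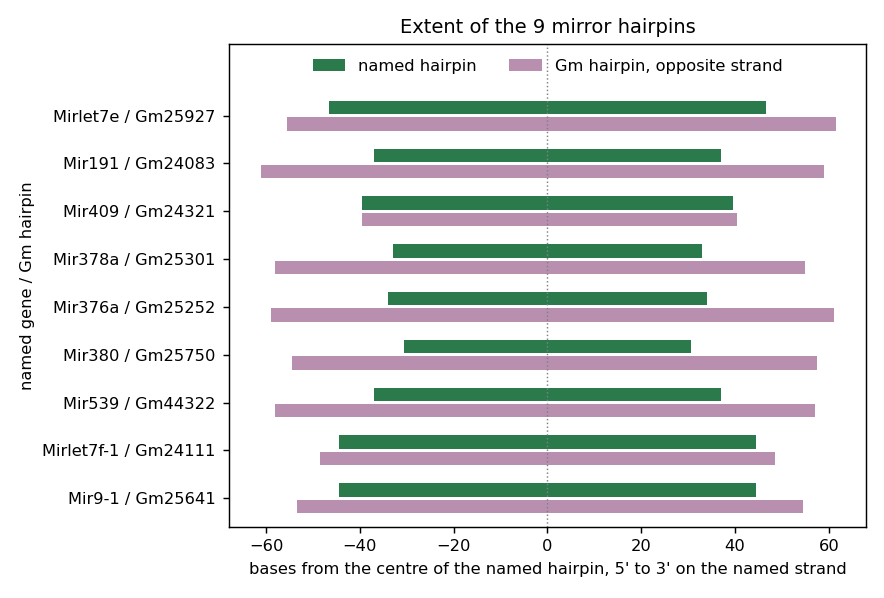
Extent of each named hairpin (green) and of the Gm hairpin on the other strand (purple), in bases from the centre of the named hairpin. All 9 Gm hairpins contain the whole of the named one, with 0 to 25 bases before its start and 1 to 27 after its end, counted along the chromosome.

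The Gm hairpins were the longer at all 9 loci, 80 to 120 bases against 61 to 93. Outside these 9, opposite-strand reads were scarce. The other 1012 members had 1398 own-strand and 16 opposite-strand reads in animal 1, so that 1.13% lay opposite (exact 95% interval 0.648 to 1.83). In animal 2 they had 686 and 2, or 0.291% (0.0352 to 1.05). With the 9 loci the share was 99.13% and 99.41%. Gm27646, in coding sequence of Pink1 on its own strand, had the most of these, 4 reads in animal 1 and 0 in animal 2, and no own-strand read.

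The libraries were then compared gene by gene with an exact binomial test given TMM effective library sizes, adjusted by Benjamini-Hochberg over all 531 genes with at least 10 reads. It compares these libraries and no conditions, because there is 1 group. Of the 15 members tested, 3 were higher in animal 1, 2 were higher in animal 2 and 10 did not pass the threshold of 0.05. That is 33.3% of the members, beside 51.6% of all genes tested, 26.9% higher in animal 1 and 24.7% higher in animal 2. The median log2 ratio of animal 1 over animal 2 was 0.14 for the members and 0.04 for all genes. Most members were tested on few reads.

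Gm23450 (269 and 179 CPM) was 1.31-fold higher in animal 1 after scaling, a log2 ratio of 0.39 (95% interval 0.23 to 0.55, exact binomial adjusted p = 4.06e-06). Gm23935 was 1.89-fold higher in animal 1, a log2 ratio of 0.92 (0.23 to 1.70, exact adjusted p = 0.0154). Its copy Gm24270 had a ratio of 0.31 (-1.26 to 2.26) and was not called. Gm24197 had 20 reads in animal 1 and 0 in animal 2 (exact adjusted p = 0.000289). It was at least 3.96-fold higher in animal 1 when the 20 reads are set against 3 in animal 2; with the counting error of the 20 reads included, the exact 95% interval of the log2 ratio started at 1.55 and was open above. It was the only 1 of the 15 members at 0 in either animal.

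Lower in animal 1 were Gm49347 and Gm24589. Gm49347 had a log2 ratio of -0.70 (-1.15 to -0.24, exact adjusted p = 0.00527), although its read counts, 85 and 82, were nearly equal, because the library of animal 2 was the smaller. Gm24589, the intron of Pkd1, had 4 and 9 reads and a ratio of -1.83 (-4.07 to -0.08, exact adjusted p = 0.0442). Both calls depended on the scaling: with library totals only, the exact adjusted p was 0.0517 for Gm49347 and 0.0829 for Gm24589.

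**Figure D5:**
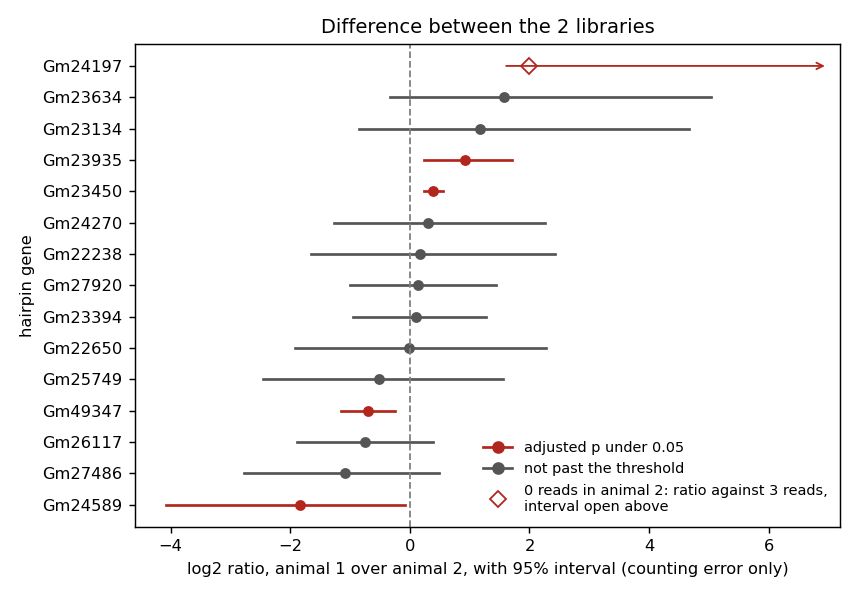
Log2 ratio of animal 1 over animal 2 for the 15 Gm hairpins tested, with exact 95% intervals that cover counting error only; red marks an adjusted p under 0.05, and the diamond with an arrow is Gm24197, at its ratio against 3 reads with an interval open above. The interval of Gm23450 (0.23 to 0.55) is the narrowest, and 10 of the 15 intervals belong to hairpins that did not pass.

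The tissue label was set against lists of cell type microRNAs. All 10 neuronal genes listed had reads in both animals, summing to 36856 and 38268 CPM, while the liver microRNA Mir122 was at 42.6 and 41.9 CPM. The endothelial Mir126a was at 28913 CPM in animal 1 and 8265 in animal 2. The smooth muscle and pericyte list went the other way (3145 and 4524 CPM), as did the oligodendrocyte list (1187 and 1640), the choroid plexus and ciliated cell list (1106 and 1496) and the microglia and blood list (1593 and 1941). The erythroid list was low and, like Mir126a, higher in animal 1 (49.1 and 17.7 CPM). Striated muscle was low too (20.8 and 28.0 CPM). Some lists, the neuronal one among them, include several gene copies of the same microRNA. Reads that map to several positions may be missing from their sums, so sums of different lists cannot be compared as levels. Whether cell makeup had a part in the differences at the 5 called hairpins was not tested.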

How the data were processed

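MicroRNA libraries of 2 animals were analysed from the deposited tables. Their values are whole-number read counts per hairpin gene, which the authors deposited unnormalized in 3 columns: both strands, own strand and opposite strand. The build (mm10) and annotation (GENCODE M21) are named in notes deposited beside the tables; the aligner and the counter are not named in the sources used here. Libraries held 11350270 and 8551277 reads, of which 33.5% and 30.4% were counted on the own strand. The rows for unmapped, multimapping, outside and ambiguous reads stayed out of library sizes and tests.

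All 2202 identifiers matched GENCODE M21, which gave symbols, coordinates and hosts; a context is the first that applies of coding sequence, UTR, noncoding exon, pseudogene exon, intron and none. Hairpin sequences came from its transcripts and mature sequences from RefSeq, whose microRNA table held 11 members. CPM, Clopper-Pearson intervals, the exact binomial test (0.5 added to counts for log2 ratios; TMM factors 1.07 and 0.932) and alternative scalings used Python 3.11.15, scipy 1.17.1, numpy 2.4.6, pandas 2.3.3, R 4.3.3, edgeR 4.0.16 (TMM) and DESeq2 1.42.0 (size factors); folding used RNAfold 2.7.2. The test was checked on simulated data.

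Named are members at 10 CPM in both animals, the 10 with most opposite-strand reads, those with 10 reads that overlap a named gene, and up to 5 per direction among binomial calls, with their named partners. The members and lists were chosen with earlier results of these data known. Alternatives were other detection levels, unstranded counts, other scalings, no filter, each animal alone, and leaving out the hairpins opposite named genes.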

Additional observations from a re-analysis of the deposited data

Results flagged for a closer look

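Opposite-strand reads away from the named genes lie outside the own-strand measurement. The highest such count was 4 reads, at Gm27646 in animal 1, and animal 2 had 0 there. It is above the 3 reads that a count of 0 allows. That limit holds for a single gene, whereas this count was picked as the highest over 1012 members, so no signal is shown. Opposite-strand reads of this kind were seen at 10 members in all.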

How the results depend on the processing

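The number of detected members was 2 at 10 CPM, 14 at 1 CPM, 1 at 100 CPM and 52 with at least 1 read in either library; animal 1 alone gave 3 and animal 2 alone gave 2. The mean share of counted reads, 0.0315%, was 0.00917% without Gm23450 (chosen after seeing the data) and 0.0264% to 0.0367% with 1 animal left out. The opposite-strand share of 99.27% became 0.711% without the 9 hairpins opposite named genes. Of the 5 members called between the libraries, 3 were called with library totals only, all 3 higher in animal 1, and 4 with no filter. Gm49347 then had a log2 ratio of -0.50 (totals, exact adjusted p = 0.0517) and Gm24589 -1.63 (totals, 0.0829) and -1.78 (no filter, 0.107). Gm22650, never called, moved from -0.01 to 0.19 (totals) and 0.04 (no filter). The share of calls over all genes that were higher in animal 1 was 52.2% with TMM, 46.7% with DESeq2 size factors and 67.5% with totals; the cause was not tested. The other 55 of 60 values for single members under an alternative kept direction and side of the threshold. No paired analysis was possible because there is a single group. With 2 animals an SD rests on 1 difference, and 37 of the 52 members with reads had under 10.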
